A study of Mus musculus with 9 samples.

Results

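The data compared here are 6 RNA-seq libraries of C2C12 cells, an established line of mouse myoblasts that fuse into contractile myotubes when serum is lowered. There are 3 libraries of dividing myoblasts, taken at day 0 of differentiation, and 3 of cultures at day 5. They are 6 of the 9 libraries of the study, which also has 3 libraries of day 3. Each day holds 1 library of control cells, 1 of cells with a knockdown of Cry1 and 1 of cells with a knockdown of Cry2. Cry1 and Cry2 encode cryptochromes, repressors of the circadian clock. The 3 day 5 libraries were set against the 3 day 0 libraries, paired by genotype, so 2 in 3 cultures on each day carried a knockdown. Differentiation was started by replacing growth medium (10% fetal bovine serum) with medium that held 5% horse serum and 1% insulin, transferrin and selenium. The medium was renewed every 2 days. Day 5 therefore differs from day 0 in serum, insulin and time as well as in cell state, and these cannot be told apart. How the knockdowns were made is not given in the sources used here, nor is whether the 3 days came from separate cultures. With 1 library for each genotype and day, p-values measure the spread between genotypes in their response over time, technical spread included.

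Skeletal myogenesis is driven by the MyoD family of transcription factors, which bind E-boxes and work with MEF2 proteins. Myoblasts leave the cell cycle, align and fuse through the membrane proteins myomaker and myomixer. They then build sarcomeres, in which myosin thick filaments slide along actin thin filaments anchored at Z-discs, and the membrane system that couples excitation to calcium release. C2C12 cultures keep some mononucleated reserve cells after fusion. In bulk RNA from such a culture, fewer cells of a type and less RNA per cell cannot be told apart.

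Library totals ran from 5613587 to 6412279 counts for the 6 libraries. Levels are given as CPM, the count scaled to 1000000 reads with TMM factors, in the order control, Cry1 knockdown, Cry2 knockdown. Where a gene has no read the limit is 3 counts in a library. By library totals, before TMM factors, that is 0.468 to 0.534 CPM in these libraries. The libraries separated by day: over the 500 genes with the largest differences of each pair, the root mean square log2 difference was 1.65 to 2.03 within a day and 4.26 to 4.89 between day 0 and day 5. The 3 smallest distances between the days all involved the Cry1 knockdown library of day 0. All myoblast markers checked (Myod1, Myf5, Des and Cdh15) were detected on both days. Myotube markers (Myog, Mymk, Ckm, Acta1, Myh3, Ttn, Actn2 and Tnnt3) were each higher in every day 5 library than in any day 0 library. Their day 0 levels ran from 0.646 CPM (Actn2, Cry2 knockdown) to 364 CPM (Acta1, Cry1 knockdown). Endothelial and blood cell markers were at or near 0 on both days.

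Of 12752 genes tested, 3632 rose (28.5%) and 3589 fell (28.1%) at an adjusted p under 0.05 in edgeR's quasi-likelihood test, 7221 in all (56.6%). A change of at least 2-fold was fitted for 1525 of the genes that rose (12.0% of those tested) and 1327 of those that fell (10.4%). The rises reached further than the falls: 209 called genes had a log2 fold change of 5 or more, against 20 with -5 or less. In each genotype on its own, 1148 genes were at least 2-fold higher and 891 at least 2-fold lower in all 3 genotypes. Day 0 and day 5 levels did not overlap for 7518 genes (59.0%), with day 5 above for 3788 (29.7%) and below for 3730 (29.3%). The split of calls depends on the scaling: without TMM factors the median log2 fold change of all genes was -0.16 and the split became 2770 rises against 4778 falls. Changes below are relative to the TMM scale, on which the median gene moved by 0.006. Counts of rises and falls in the lists below are to be read beside the shares of all genes, 28.5% and 28.1%.

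**Figure D1:**
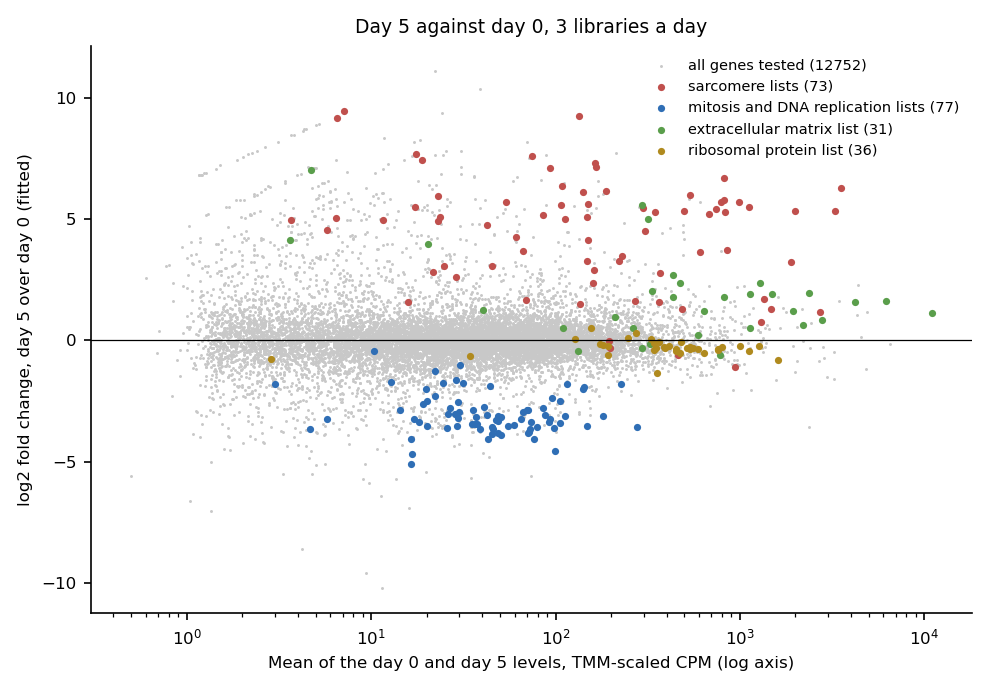
Fitted log2 fold change of day 5 over day 0 (vertical) against the mean level of the 2 days in CPM (horizontal, log axis) for the 12752 genes tested, 1 point a gene, with members of 4 sets of lists in colour. Sarcomere genes lie almost all above 0 and mitosis and DNA replication genes all below 0, while ribosomal protein genes lie near 0.

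**Figure D2:**
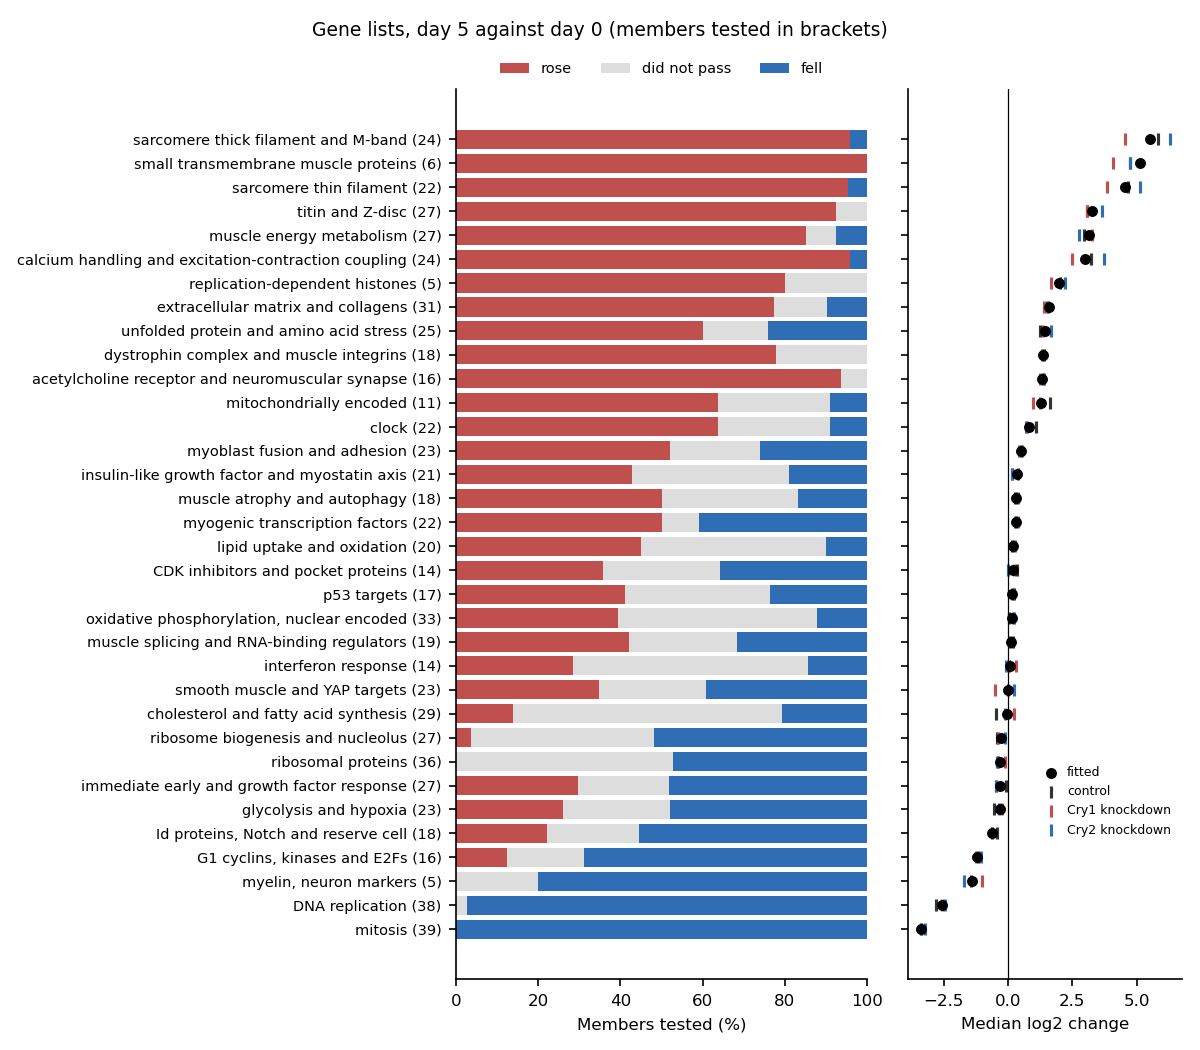
Share of tested members that rose, fell or did not pass in each list of at least 5 tested genes (left, percent of members, number tested in brackets) and the median log2 change of day 5 over day 0 (right), fitted (black points) and within each genotype (ticks). All 39 mitosis genes fell, at a median of -3.38, and 23 of 24 thick filament genes rose, with the Cry1 knockdown tick furthest to the left at 4.54.

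The regulators of myogenesis split. Of 22 genes tested in the list of myogenic transcription factors, 11 rose and 9 fell (median log2 fold change 0.31). Without each library in turn, 10 or 11 rose and 5 to 8 fell, and DESeq2 called 5 falls. Myod1, the factor that commits cells to the muscle lineage, had 109, 158 and 82.5 CPM at day 0 and 123, 138 and 130 at day 5. These ranges overlap and the change did not pass (log2 fold change 0.20 ± 0.17 SE, adjusted p = 0.344). Myog, myogenin, which acts later in the same family, went from 58.7, 180 and 35.4 CPM to 959, 1000 and 717. Every day 5 library lay above every day 0 library (log2 fold change 3.52 ± 0.35, adjusted p = 3.1e-05). The Myog gene lies at chr1:134289989-134292548 on the plus strand of mm10 (GENCODE M21). Mef2c, a MEF2 factor of differentiating muscle, rose from 8.80, 28.5 and 13.6 to 391, 633 and 336 CPM (4.84 ± 0.22). Mef2a rose by 1.49 and Mef2d by 1.08 on the log2 scale. Smyd1, a methyltransferase needed for sarcomere assembly, rose by 3.47. Myf6, the family member of mature fibres, had 3 counts in all at day 0 and 91 at day 5, a ratio of 36.7 (95% counting interval 12.2 to 181). Myf5, linked to early myoblasts, rose slightly (0.58 ± 0.14, adjusted p = 0.0052) although its levels overlapped between days, and 3 of 19 alternative settings lost that call. Among the genes that fell, Msc, a bHLH repressor of myogenic genes, fell from 18.3, 9.34 and 15.2 to 7.79, 1.59 and 4.54 CPM (log2 fold change -1.68 ± 0.24), and Tcf3, the E-protein partner of MyoD, fell by 0.93.

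In the list of Id proteins, Notch and reserve cell genes, 10 of 18 tested fell and 4 rose (median -0.62). Id3, which blocks bHLH factors by binding their E-protein partners, went from 62.1, 87.1 and 43.5 CPM to 6.67, 6.72 and 3.59 (log2 fold change -3.48 ± 0.18, adjusted p = 6.8e-07). Id2 went from 26.6, 47.7 and 25.0 to 2.78, 4.07 and 3.78 CPM (-3.19 ± 0.21). Id1 fell by 1.17, and the Notch targets Hes1 and Hey1 by 1.19 and 1.79. Members that rose were Jag1, a Notch ligand (1.77), Spry1, a receptor tyrosine kinase antagonist linked to quiescent satellite cells (2.44), Cd34 and Myf5. Pax7, the satellite cell factor, fell by 0.63 (adjusted p = 0.025).

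Among 23 fusion and adhesion genes tested, 12 rose (52.2%, beside 28.5% of all genes) and 6 fell (26.1%, beside 28.1%). Mymk, myomaker, went from 33.6, 72.8 and 25.7 CPM to 876, 922 and 1026 (log2 fold change 4.48 ± 0.30, adjusted p = 2.9e-06). Mymx, myomixer, went from 4.25, 8.60 and 2.58 to 130, 127 and 96.8 CPM (4.52 ± 0.25). For both fusogens the Cry1 knockdown library was the highest of day 0, and no day 5 library came near any of day 0. Itgb1bp2, melusin, rose by 6.76 and Cav3, muscle caveolin, by 6.56. Adam12, a metalloprotease of fusing myoblasts, rose by 2.47. Members that fell included Cdh15, M-cadherin (-0.72), Dock1, a Rac activator (-1.05), and Kirrel (-0.92). Cdh2, N-cadherin, rose by 0.84.

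The genes of the contractile apparatus rose nearly as a whole. In the thick filament and M-band list 23 of 24 tested rose and 1 fell (median log2 fold change 5.51). In the thin filament list 21 of 22 rose and 1 fell (4.54), and in the titin and Z-disc list 25 of 27 rose and none fell (3.28), against 28.5% of all genes that rose. Leaving out each library in turn left the 3 counts of rises as they are. The 2 members that fell are not specific to muscle: Hsp90aa1, a chaperone that helps fold myosin, fell by 1.10 and Tpm3, a tropomyosin, by 0.61. With Myl2, which had no count at day 0, set at its bound, the thick filament median is 5.48. All 6 tested genes of small transmembrane muscle proteins rose (median 5.13, or 4.50 with Fxyd1, at 0 at day 0, at its bound).

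Myh3, embryonic myosin heavy chain, went from 70.3, 184 and 50.1 CPM to 6819, 6513 and 7465 (log2 fold change 6.28 ± 0.38, adjusted p = 1.7e-06). Acta1, skeletal actin, went from 117, 364 and 72.5 to 6148, 6377 and 6614 CPM (5.35 ± 0.46, adjusted p = 1.3e-05). The day 5 levels of both lay within a narrow range, and the spread was at day 0, where the Cry1 knockdown library stood highest. Mylpf, a fast light chain, rose by 5.33 and Myl4, the embryonic and atrial light chain, by 6.70. Mybpc1, slow myosin-binding protein C (chr10:88518279-88605152, minus strand), went from 0.147, 0.889 and 0.323 CPM to 289, 355 and 156 (9.25 ± 0.36), with 9 counts in all at day 0. The perinatal and adult heavy chains also rose, Myh8 by 7.17, Myh1 by 5.45, Myh4 by 6.39 and the slow Myh7 by 5.03. Their transcripts share 21.4%, 29.8%, 18.9% and 28.2% of their 50-base words with other genes, so the division of reads among them is uncertain. Myl2, the slow and ventricular light chain, had 0 counts in all 3 day 0 libraries and 3.34, 9.02 and 26.9 CPM at day 5, at least 28.6-fold higher against a floor of 3 counts per library.

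Troponin genes of both fibre types rose: Tnnt3, fast troponin T, from 23.0, 57.6 and 16.8 to 1364, 1626 and 1650 CPM (5.69 ± 0.31), and Tnnc1, slow and cardiac troponin C, from 27.9, 72.9 and 20.03 to 1825, 2043 and 1929 (5.73 ± 0.33). Fast Tnni2 rose by 5.33. Fast Tnnc2 is uncertain, since 74% of its exon bases are overlapped by Ube2c. Actc1, the cardiac actin of developing muscle, rose by 5.20, Neb, nebulin, by 5.98 and Lmod2, which nucleates and lengthens thin filaments, by 5.58. Ttn, titin, the spring of the sarcomere, went from 61.0, 144 and 74.6 to 1146, 1197 and 1036 CPM (3.65 ± 0.24, adjusted p = 2.3e-06). Actn2, the Z-disc actinin, rose by 7.33, Myoz2 by 7.60 and Csrp3, muscle LIM protein, by 7.11. Tcap, telethonin, had 3 counts in all at day 0 and 567 at day 5, a ratio of 229 (95% counting interval 77.8 to 1110). Des, desmin, was already at 1638, 1633 and 1777 CPM at day 0 and reached 3369, 3859 and 4085 (1.16 ± 0.10). Trim63, MuRF1, a ubiquitin ligase of the sarcomere, rose by 5.96.

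The change over time in the thick filament, thin filament and calcium handling lists was smallest in the Cry1 knockdown. The median log2 ratio of day 5 to day 0 over thick filament genes was 5.85 in the control, 4.54 in the Cry1 knockdown and 6.29 in the Cry2 knockdown. Not all muscle lists went this way. The same medians, in the same order, were 3.065, 3.057 and 3.674 for titin and Z-disc genes. For muscle energy genes they were 2.968, 3.261 and 2.778, highest in the Cry1 knockdown. These are single libraries and the differences were not tested. Day 0 levels of Acta1, Myh3, Ttn, Myog and Mymk were each highest in the Cry1 knockdown. At day 5 the Cry1 knockdown was the highest of the 3 for Myog and Ttn, and not for Acta1, Myh3 or Mymk.

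**Figure D3:**
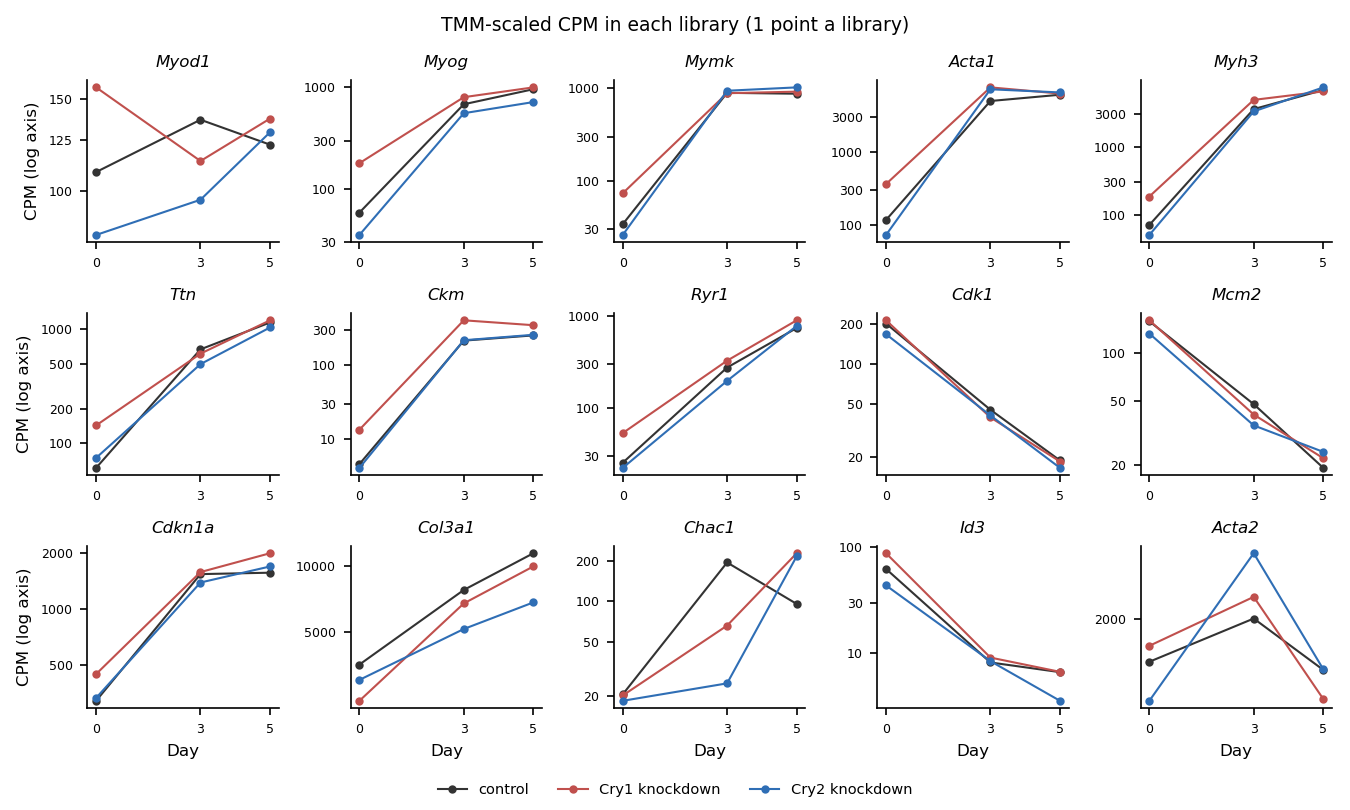
Levels of 15 genes in CPM (vertical, log axes) by day (horizontal), 1 point a library and 1 line a genotype. Myog, Mymk and the sarcomere genes start lowest in the Cry2 knockdown or the control and highest in the Cry1 knockdown at day 0 and come together by day 5, Cdk1 and Mcm2 fall in all 3 genotypes, and Myod1 and Acta2 overlap between days 0 and 5.

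Calcium handling and the triad, where the surface membrane meets the sarcoplasmic reticulum, rose with the sarcomere: 23 of 24 genes tested rose and 1 fell (median 2.98). Ryr1, the calcium release channel, went from 25.5, 53.5 and 22.5 to 736, 893 and 775 CPM (4.64 ± 0.21). Cacna1s, the voltage sensor that opens it, rose by 5.95 and Atp2a1, the fast-fibre calcium pump, by 5.70. Casq2, cardiac and slow calsequestrin, a calcium store protein, went from 12.9, 35.0 and 10.3 to 1133, 996 and 991 CPM (5.84 ± 0.33, adjusted p = 1.1e-06). Casq1, its fast-fibre paralogue, went from 0.440, 0.148 and 0.808 to 117, 186 and 116 CPM (8.20 ± 0.26), with 9 counts in all at day 0. Scn4a, the muscle sodium channel, rose by 5.80. Pvalb, parvalbumin, had 1 count in all at day 0 and 1.67, 15.9 and 2.84 CPM at day 5, with most of its 114 counts in the Cry1 knockdown. Asph, whose locus also encodes junctin, fell by 0.36.

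At the synapse, 15 of 16 genes of the acetylcholine receptor and neuromuscular junction rose and none fell (median 1.31). Chrng, the fetal gamma subunit of the receptor, went from 22.9, 64.5 and 20.7 to 701, 720 and 749 CPM (4.45 ± 0.31). Chrna1, the ligand-binding subunit, went from 597, 685 and 745 to 1560, 1675 and 1822 (1.32 ± 0.09). Chrne, the adult epsilon subunit, had 0 counts at day 0 and 7.79, 3.89 and 2.65 CPM at day 5, at least 10.5-fold higher. Musk, the kinase that clusters receptors, rose by 1.31, and Ache and Colq, the esterase and its collagen tail, by 4.18 and 4.20. In the dystrophin complex and integrin list 14 of 18 rose and none fell (1.38). Sgca, alpha-sarcoglycan, rose by 2.73. Dmd, dystrophin, had 2 counts in all at day 0 and 5.01, 34.0 and 5.11 CPM at day 5, so its day 5 level in the Cry1 knockdown stood well above the other two.

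Genes of muscle energy supply rose in 23 of 27 cases and fell in 2 (median 3.14). Ckm, muscle creatine kinase, went from 4.55, 13.3 and 4.04 to 256, 352 and 260 CPM (5.39 ± 0.21, adjusted p = 1.7e-07), and Pygm, muscle glycogen phosphorylase, from 2.64, 5.48 and 2.42 to 341, 352 and 316 (6.59 ± 0.18). Cox6a2, the muscle subunit of cytochrome oxidase, rose by 7.53 and Slc2a4, the insulin-responsive glucose transporter, by 3.16. Cd36, a fatty acid transporter of the lipid uptake list, went from 0, 1.48 and 0.161 CPM to 56.5, 97.6 and 28.9 (6.88 ± 0.41), where 9 of 20 lipid genes rose and 2 fell. The members of the energy list that fell were Ldha, lactate dehydrogenase A (-0.97), and Pdk4, a brake on pyruvate oxidation (-1.22). In the glycolysis and hypoxia list 11 of 23 genes fell and 6 rose, and its median of -0.33 ran from -0.52 without the Cry1 knockdown library of day 0 to 0.04 without the Cry2 knockdown genotype. Slc2a1, the basal glucose transporter, fell by 1.40 and Pfkl, liver phosphofructokinase, by 1.43, while Hk2 rose by 1.39 and Car9, a hypoxia-inducible carbonic anhydrase, by 3.94. Eno1 (-1.63) and Pkm (-0.73) share 67.9% and 34.4% of their words with other genes, and Pkm lost its call in 1 alternative setting.

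Pairs of related genes made the exchange visible gene by gene. Of 40 pairs of a striated muscle or later form and a broad or earlier form, 34 had both members tested. The muscle form rose and the broad form fell in 14 pairs, the muscle form rose while the broad form did not pass in 10, and both rose in 4. Of all genes tested 28.5% rose and 28.1% fell. Aldoa, a muscle form among those 10 pairs, rose by 0.34 and lost its call in 6 of 19 alternative settings. In 3 pairs only the broad form passed, by falling, and in 3 the listed muscle or late form fell while its partner rose. Among actinins Actn2 rose by 7.33 while Actn1, the non-muscle form, fell from 714, 765 and 652 to 314, 345 and 291 CPM (-1.17 ± 0.07). Among cytoplasmic actins Actb fell from 4520, 4374 and 4285 to 1606, 1554 and 1521 CPM (-1.49 ± 0.09) against the rise of Acta1 by 5.35. Among filamins Flnc rose by 1.73 and Flna fell by 1.31. For tropomyosins Tpm2 rose by 3.22 and Tpm4 fell by 1.40, and for ferlins Dysf, dysferlin, rose by 2.57 and Myof, myoferlin, fell by 0.68. In the calcium pump pair both rose, Atp2a1 by 5.70 and Atp2a2 by 1.59. Ckb, the brain creatine kinase beside Ckm, was at 135, 120 and 206 CPM at day 0 and 121, 145 and 218 at day 5 (0.07 ± 0.10, adjusted p = 0.601). The reversed pairs were Ldha and Ldhb, Cdh15 and Cdh2, and H3f3b and H3f3a. In the splicing regulator list 8 of 19 rose (42.1%, beside 28.5% of all genes) and 6 fell (31.6%, beside 28.1%). Ptbp1, which represses muscle exons, fell by 1.45 while its pair member Ptbp2 did not pass (-0.31 ± 0.12), and Rbfox1 and Rbm24, muscle splicing activators, rose by 6.06 and 3.96.

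**Figure D4:**
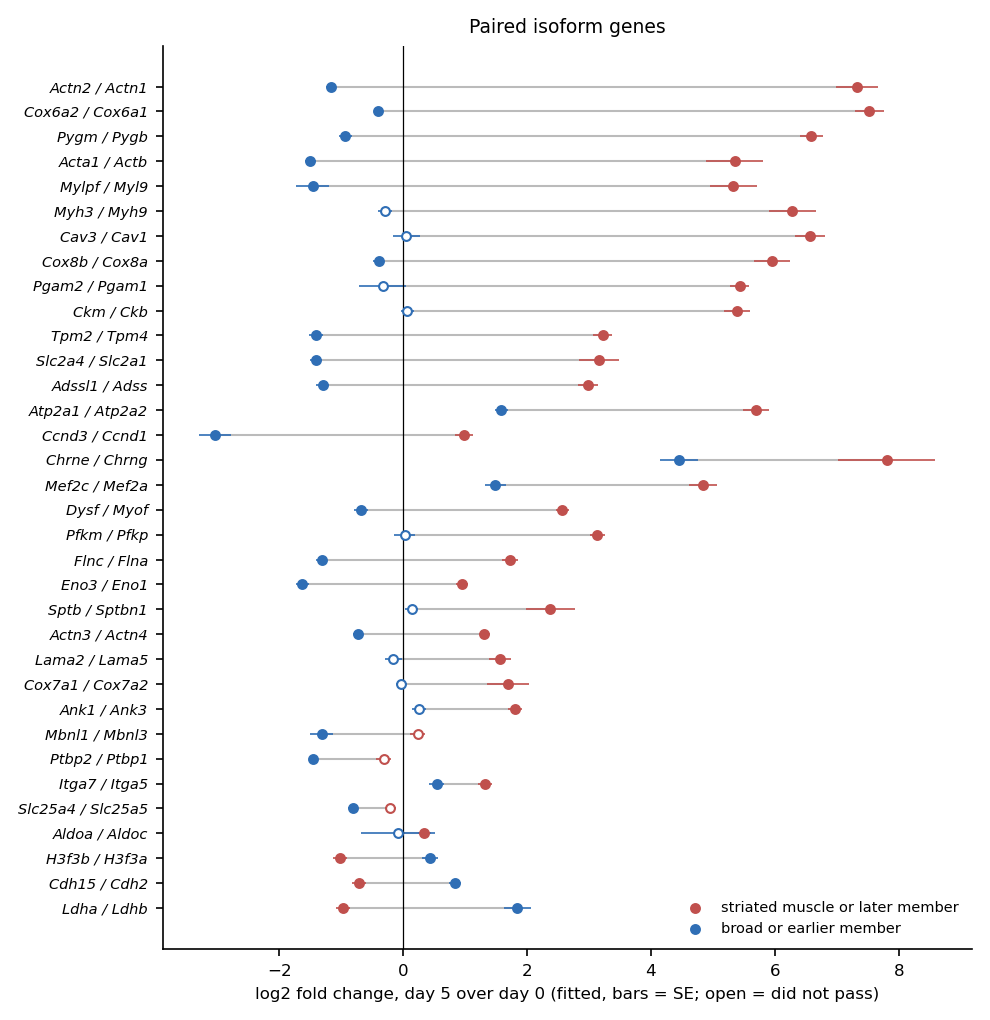
Fitted log2 fold change of day 5 over day 0 for both members of 34 pairs, with the striated muscle or later member in red, the broad or earlier member in blue, bars of 1 SE and open points where the change did not pass. In 14 pairs the red point lies to the right of 0 and the blue point to the left, both past the threshold.

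The cell cycle genes fell without exception in the mitosis list, where 39 of 39 genes tested fell, by 2.74 to 4.08 on the log2 scale (median -3.38), beside 28.1% of all genes. In the DNA replication list 37 of 38 fell (median -2.58), and the remaining gene, Gins3, did not pass (-0.43 ± 0.22). Leaving out each library in turn gave 39 of 39 again and 37 or 38. Cdk1, the kinase that starts mitosis, went from 200, 212 and 167 to 18.9, 18.6 and 16.6 CPM (-3.42 ± 0.10, adjusted p = 8.5e-08). Top2a, the topoisomerase of dividing cells, went from 535, 545 and 445 to 41.9, 45.3 and 39.9 (-3.58 ± 0.09). Mki67, the proliferation antigen, fell by 3.53 and Cdc20, which activates the anaphase-promoting complex, by 3.81. Ccnb1, cyclin B1 (-4.08), shares 42.1% of its words with another copy. Cdc6, which loads the replicative helicase, went from 29.0, 40.3 and 26.3 to 0.556, 1.06 and 1.14 CPM (-5.09 ± 0.21). Mcm2, a subunit of that helicase, fell by 2.77, Uhrf1, which guides maintenance methylation, by 4.55, and E2f7, an E2F repressor, by 4.25.

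Upstream of the cycle, 11 of 16 G1 genes fell and 2 rose, with 1 rise in 4 of the 6 fits that left out a library. Ccnd1, cyclin D1, went from 241, 237 and 234 to 30.4, 35.9 and 23.1 CPM (-3.03 ± 0.25), with 23.4% of its exon bases overlapped by LTO1. Ccnd3, the D cyclin of differentiated muscle, rose from 139, 167 and 94.8 to 330, 249 and 215 (0.98 ± 0.15), and Ccnd2 by 0.78. Cdk4 and Cdk6 fell by 1.18 and 1.22. Myc stayed within overlapping ranges, at 61.8, 62.5 and 48.6 against 56.0, 76.6 and 56.9 CPM (0.13 ± 0.13, adjusted p = 0.419). The CDK inhibitors and pocket proteins gave 5 rises and 5 falls of 14. Each fit that left out a library gave 3 or 4 rises. There were 3 without the day 0 Cry1 knockdown library or either of the control and Cry2 knockdown libraries of day 5. DESeq2 gave 3 rises, and the 6 libraries of days 0 and 5 alone gave 5. Cdkn1a, p21, went from 321, 446 and 332 to 1560, 1984 and 1685 CPM (2.26 ± 0.11), Rb1, the retinoblastoma protein that holds myotubes out of the cycle, rose by 1.00, and Rbl1, p107, fell by 2.11. Most replication-dependent histone genes were too low to test in this polyA RNA (33 of 38). Of the 5 tested 4 rose, among them Hist1h1c by 2.18. The list median of 1.999 ran from 0.172 to 2.161 over the alternative fits. With 33 members untested, these rises do not describe the histone genes as a set.

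Promoter windows are shown for genes at both ends of this comparison, with the letters that muscle and cell cycle factors are known to bind. RefSeq windows of GRCm38.p6, from 250 bases before to 50 after the start, were matched by symbol for 9315 of the tested genes, with the first listed window taken where a gene had several, and searched on both strands. The 3 windows below are of genes that rose, with each CANNTG (the E-box) in capitals, and the MEF2 site of Casq2 and the CArG box, bound by SRF, of Acta1 in capitals too. A MEF2 site was taken as YTAWWWWTAR (Y for C or T, W for A or T, R for A or G). Near matches, such as ctatatttat in Myog, were not counted and stay in lower case. Myog is at chr1:134289754-134290053 on the plus strand, Casq2 at chr3:102086165-102086464 on the plus strand and Acta1 at chr8:123894726-123895025 on the minus strand.
Myog: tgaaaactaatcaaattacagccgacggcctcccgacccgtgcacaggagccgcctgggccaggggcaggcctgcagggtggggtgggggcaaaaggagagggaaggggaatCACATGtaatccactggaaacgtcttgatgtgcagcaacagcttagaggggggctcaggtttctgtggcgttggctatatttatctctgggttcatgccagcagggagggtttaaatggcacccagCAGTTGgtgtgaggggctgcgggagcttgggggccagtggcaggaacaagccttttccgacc
Casq2: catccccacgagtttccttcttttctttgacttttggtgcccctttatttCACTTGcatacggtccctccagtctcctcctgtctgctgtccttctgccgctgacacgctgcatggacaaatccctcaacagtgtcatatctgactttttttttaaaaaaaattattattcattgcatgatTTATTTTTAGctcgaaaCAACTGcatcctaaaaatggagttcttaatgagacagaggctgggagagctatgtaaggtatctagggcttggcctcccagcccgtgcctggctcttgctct
Acta1: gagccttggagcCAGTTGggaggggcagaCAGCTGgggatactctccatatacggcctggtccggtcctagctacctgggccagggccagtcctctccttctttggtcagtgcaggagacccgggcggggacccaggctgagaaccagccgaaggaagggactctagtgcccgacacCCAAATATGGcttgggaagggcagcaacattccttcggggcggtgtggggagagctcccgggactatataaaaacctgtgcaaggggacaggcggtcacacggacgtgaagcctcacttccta
The windows hold 2 E-boxes each, and 1 of those in Acta1 is CAGCTG. The letters CAGCTG, which are also counted among CANNTG, stood in 40.4% of 57 sarcomere windows and in 24.0% of 1077 windows of genes that rose at least 2-fold, beside 15.1% of all and 14.8% of 951 windows of genes that fell at least 2-fold. CANNTG stood in 82.5% of sarcomere windows, 73.1% of the risen, 59.9% of the fallen and 62.3% of all. In 14 calcium handling windows, the list of Casq2, CANNTG stood in 57.1% and CAGCTG in 35.7%. In 33 DNA replication windows CANNTG stood in 69.7% and CAGCTG in 15.2%. A MEF2 site stood in 21.1% of sarcomere windows, 5.39% of the risen, 1.68% of the fallen and 1.86% of all, and TATAAA in 26.3%, 11.2%, 7.36% and 6.84%. A CArG box stood in 8.77% of sarcomere windows and 1.35% of all.

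The next 3 windows are of genes that fell. Capitals mark CCAAT and TTTGAA (the core of the cell cycle homology region) on either strand in Cdk1, at chr10:69352863-69353162, minus strand, and Cdc20, at chr4:118437294-118437593, minus strand. In Cdc6, at chr11:98907901-98908200, plus strand, they mark the E2F letters TTTCCCGC or TTTGGCGC.
Cdk1: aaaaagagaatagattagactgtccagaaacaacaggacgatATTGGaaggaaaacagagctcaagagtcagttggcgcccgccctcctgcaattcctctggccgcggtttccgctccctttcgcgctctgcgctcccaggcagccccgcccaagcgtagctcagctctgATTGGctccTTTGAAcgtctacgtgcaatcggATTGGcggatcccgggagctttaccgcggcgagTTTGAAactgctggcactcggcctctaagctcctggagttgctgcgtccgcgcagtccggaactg
Cdc20: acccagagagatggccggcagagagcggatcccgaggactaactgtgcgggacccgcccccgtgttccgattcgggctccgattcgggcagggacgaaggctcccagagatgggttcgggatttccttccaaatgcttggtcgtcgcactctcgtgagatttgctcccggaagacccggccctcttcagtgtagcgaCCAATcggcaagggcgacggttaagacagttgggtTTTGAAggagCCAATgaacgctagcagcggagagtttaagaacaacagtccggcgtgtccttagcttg
Cdc6: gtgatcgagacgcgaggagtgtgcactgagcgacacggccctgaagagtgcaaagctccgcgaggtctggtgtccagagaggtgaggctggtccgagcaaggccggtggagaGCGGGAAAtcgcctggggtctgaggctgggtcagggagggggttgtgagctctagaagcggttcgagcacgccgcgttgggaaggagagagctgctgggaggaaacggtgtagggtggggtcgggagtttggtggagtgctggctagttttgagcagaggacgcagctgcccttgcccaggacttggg
Cdk1 holds 3 CCAAT and 2 TTTGAA, Cdc20 holds 2 and 1, and Cdc6 has 1 E2F match. In the mitosis list 75.0% of 32 windows held CCAAT and 75.0% held TTTGAA, beside 38.9% and 11.6% of all windows. CCAAT stood in 63.6% of 33 DNA replication windows, 47.3% of the fallen, 36.2% of the risen and 29.8% of sarcomere windows. High shares of CCAAT were not limited to lists that fell. It stood in 69.6% of 23 windows from the list that holds Chac1, described below, where 15 of 25 genes rose. TTTGAA stood in 4.35% of those 23 windows. With the 250 bases before the start alone, TTTGAA fell to 37.5% of mitosis windows, so in the other windows with a match it lay across or after position -1. E2F letters stood in 30.3% of 33 DNA replication windows, 3.12% of mitosis windows, 7.78% of the fallen and 3.20% of all, and in none of the sarcomere windows. These are letter matches, counted without a test, and many sarcomere genes are regulated from elements outside such windows.

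In the extracellular matrix list 24 of 31 rose and 3 fell (median 1.58). The falls were 0 without the control or the Cry1 knockdown library of day 5, and 1 without the day 0 library of either knockdown or the Cry2 knockdown library of day 5. Fn1, fibronectin, had the largest gain in CPM of all genes tested, from 5805, 6802 and 7901 to 17291, 13249 and 15015 (1.13 ± 0.20, adjusted p = 0.0012). Col3a1, a fibrillar collagen, went from 3542, 2420 and 3015 to 11421, 9943 and 6811 (1.63 ± 0.16), and Sparc, a collagen-binding protein, from 2160, 2049 and 2141 to 6182, 6075 and 6740. Col1a1 rose by 1.95 but differed between genotypes on both days, at 947, 1634 and 486 CPM and then 3103, 5408 and 2576. Among small proteins that decorate collagen Dcn, decorin, went from 20.1, 9.34 and 28.3 to 815, 321 and 705 CPM (5.03 ± 0.15), and Postn, periostin, from 6.45, 25.5 and 6.46 to 619, 566 and 543 (5.61 ± 0.36). Lum, lumican, had 1 count in all at day 0 and 152 at day 5. Tnc, tenascin C, fell by 0.61, and its Cry2 knockdown level was 841 and 842 CPM on the 2 days.

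The share of all counts shows the same exchange by library. Sarcomere lists took 0.881%, 1.10% and 0.849% of the counts at day 0 and 5.42%, 5.83% and 5.78% at day 5. Matrix genes went from 2.57%, 2.75% and 2.48% to 6.22%, 5.67% and 5.12%. Mitosis and replication genes went from 0.875%, 0.905% and 0.721% to 0.0939%, 0.105% and 0.101%. Day 0 and day 5 did not overlap in any of these 3 shares. The number of genes that make up 50% of the counts fell from 1001, 1014 and 1000 to 815, 807 and 811.

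**Figure D5:**
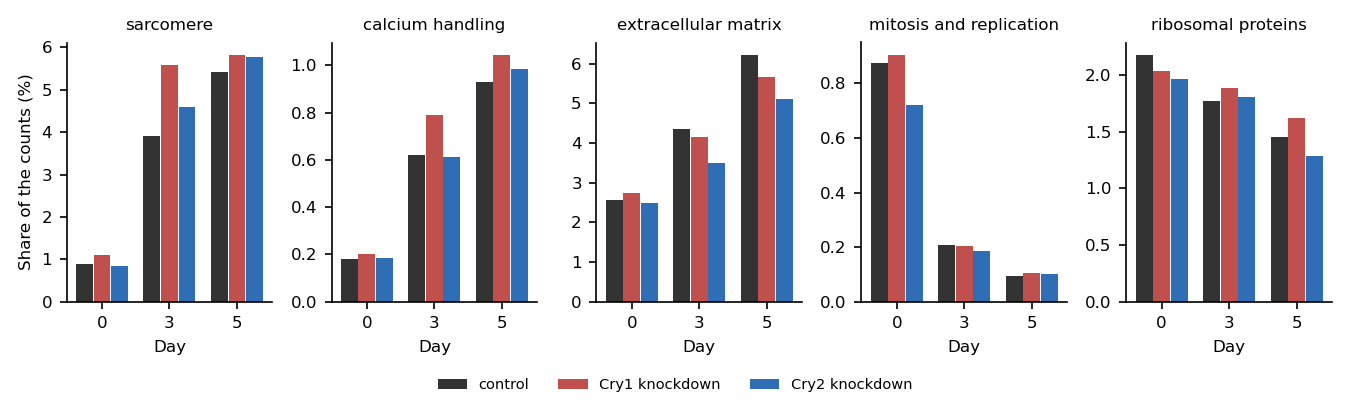
Share of each library's counts (vertical, percent, axes from 0) in 5 groups of lists by day (horizontal), 1 bar a library and 1 colour a genotype. Sarcomere genes go from 0.849% to 1.10% at day 0 to 5.42% to 5.83% at day 5, and ribosomal protein genes from 1.97% to 2.18% to 1.28% to 1.62%.

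Among growth factor genes of muscle several ligands rose. In the insulin-like growth factor and myostatin list 9 of 21 rose and 4 fell. Igf1 went from 6.01, 2.96 and 3.55 to 79.7, 18.2 and 59.2 CPM (3.56 ± 0.24), lowest on both days in the Cry1 knockdown. Igf2 rose from 8.65, 20.2 and 9.05 to 496, 667 and 501 CPM (5.49 ± 0.20), with 64.6% of its exon bases overlapped by Gm49394. H19, the noncoding RNA next to it in the imprinted cluster, went from 1352, 2141 and 1057 to 6831, 8410 and 6507 CPM (2.29 ± 0.18). Fst, follistatin, which binds myostatin, rose by 3.65. Igfbp2 fell from 1151, 939 and 1430 to 241, 80.8 and 311 CPM (-2.71 ± 0.30), and Igf1r, the receptor, fell by 0.46. Igfbp5 rose by 1.03 (adjusted p = 0.012), a call lost without the control library of day 0 or the Cry2 knockdown library of day 5.

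In the immediate early and growth factor response list 13 of 27 fell (48.15%, beside 28.1% of all genes) and 8 rose (29.63%, beside 28.5%). The falls ran from 10 to 13 when each library was left out, with 5 rises without the control library of day 0 or the Cry2 knockdown library of day 5. The summed level of the list was 2077, 2025 and 2164 CPM at day 0 and 2053, 2049 and 2039 at day 5. Fosl1, an AP-1 subunit, went from 88.7, 67.0 and 78.3 to 5.38, 2.12 and 1.89 CPM (-4.66 ± 0.22), with 57.2% of its exon bases overlapped by Ccdc85b. Dusp4, Dusp5 and Dusp6, phosphatases that act on MAP kinases, fell by 2.54, 2.79 and 1.63, and Etv4, a target of the same pathway, fell by 2.76. Fos did not pass (0.13 ± 0.32). In the smooth muscle and YAP list 8 of 23 rose (34.8%, beside 28.5% of all genes) and 9 fell (39.1%, beside 28.1%). Acta2, smooth muscle actin, which C2C12 cells express, was at 1490, 1662 and 1140 CPM at day 0 and 1409, 1154 and 1415 at day 5, and did not pass (-0.12 ± 0.19, adjusted p = 0.633). Tagln2 and Cnn2, actin-binding proteins, fell by 1.71 and 1.68, while Tead4 rose by 2.87 and Mylk by 2.60.

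In the list of unfolded protein and amino acid stress 15 of 25 genes rose and 6 fell (median 1.45). Divided by role after their values were seen, amino acid stress genes were among those that rose and chaperones of the endoplasmic reticulum among those that fell. Trib3, a pseudokinase induced by ATF4, went from 10.3, 11.3 and 14.2 to 127, 243 and 210 CPM (4.08 ± 0.69, adjusted p = 0.0009). Chac1, a glutathione-degrading enzyme, went from 20.5, 20.2 and 18.4 to 95.7, 227 and 215 (3.28 ± 0.64), and Vldlr, a lipoprotein receptor, from 3.67, 4.45 and 4.85 to 80.6, 82.6 and 101 (4.38 ± 0.45). Slc7a5, an amino acid transporter, rose by 2.24, Atf5 by 1.67 and Atf4, the factor of this response, by 1.17. For Trib3 and Chac1 the control was the lowest library of day 5, but no day 5 library overlapped day 0. All 6 members that fell act in protein folding or quality control in the endoplasmic reticulum, among them Hspa5, BiP, from 996, 1017 and 975 to 711, 707 and 725 CPM (-0.48 ± 0.12), and Hsp90b1, Grp94, which fell by 1.05. Herpud1, of the degradation machinery of the same compartment, rose by 2.79. Asns, asparagine synthetase, rose by 1.65 (adjusted p = 0.0070), and without the Cry2 knockdown library of day 5 its adjusted p was 0.0521. The letters TGATGCAA, found in elements bound by ATF4 with C/EBP partners, stood in 13.0% of 23 windows of this list and 0.623% of all. The Chac1 window, at chr2:119350992-119351291 on the plus strand, holds 1 match, in capitals.
Chac1: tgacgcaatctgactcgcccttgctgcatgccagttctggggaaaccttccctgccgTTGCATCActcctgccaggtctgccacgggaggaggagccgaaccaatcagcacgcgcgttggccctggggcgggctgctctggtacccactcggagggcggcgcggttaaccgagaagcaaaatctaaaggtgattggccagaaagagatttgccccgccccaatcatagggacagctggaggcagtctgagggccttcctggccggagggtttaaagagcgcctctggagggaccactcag

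Nuclear genes of oxidative phosphorylation gave 13 rises and 4 falls of 33, all under 2-fold (median 0.15), with 2 falls without either control library, and without TMM factors 4 rises and 9 falls, so their direction depends on the scaling. Of 11 mitochondrially encoded genes 7 rose and 1 fell (median 1.30). The count of falls was 4 without the Cry1 knockdown library of day 0, 3 without the control library of day 0, and 0 without either Cry2 knockdown library. It was 4 without the genotype term. mt-Nd5 went from 534, 853 and 832 to 2509, 2424 and 2451 CPM (1.77 ± 0.16), and mt-Co1 from 2429, 2922 and 3954 to 7080, 6442 and 6658, with 51.1% of its words shared with other genes. The day 0 library of the Cry2 knockdown stood apart for 4 adjacent genes: mt-Co2 had 4.11, 4.59 and 611 CPM at day 0 and 9.83, 9.20 and 10.6 at day 5, and mt-Atp8, the only member called as falling, had 1.03, 1.48 and 110 and then 2.23, 1.24 and 2.27. Without that library mt-Atp8 turned to 0.31 (adjusted p = 0.658) and 10 of the 11 genes rose. Ribosomal protein genes gave 17 falls and no rise of 36 (median -0.30), and 9 to 20 falls when each library was left out. Without TMM factors 27 fell. Rplp0 fell by 0.78 and Rps19 by 0.59, and they share 41.8% and 2.68% of their words with other genes. Ribosome biogenesis genes fell in 14 of 27 cases and rose in 1, with Ncl, nucleolin, down by 0.79 and Npm1, nucleophosmin, by 1.16. Without TMM factors 20 of them fell. Npm1 shares 40.9% of its words with other genes.

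The sterol and fatty acid synthesis list had 19 of 29 genes short of the threshold, 4 rises and 6 falls. The falls were 11 without the Cry1 knockdown library of day 0 and 12 without TMM factors, and the rises were 7 without the control library of day 5. Hmgcs1 was at 264, 243 and 241 CPM and then 181, 313 and 225 (-0.10 ± 0.16). Scd1, a desaturase, rose by 1.09 and Elovl6, an elongase, fell by 2.20. Clock genes gave 14 rises and 2 falls of 22 tested (median 0.81), each day being 1 time point of an oscillation. Usp2, a deubiquitinase with clock-driven expression, went from 3.81, 4.30 and 4.04 to 45.2, 49.0 and 46.3 CPM (3.53 ± 0.15, adjusted p = 2.5e-07). Nfil3, a repressor in the clock network, rose by 1.70, and Clock itself did not pass (-0.02 ± 0.07). Cry2, one of the knockdown targets, rose from 19.2, 28.8 and 7.27 to 48.9, 68.1 and 16.6 CPM (1.27 ± 0.16), lowest in its own knockdown on both days. Cry1 did not pass (0.18 ± 0.21), at 20.5, 8.30 and 13.1 and then 17.4, 8.14 and 22.9 CPM. In the atrophy and autophagy list 9 of 18 rose and 3 fell, the falls being 0 without the Cry1 knockdown library of day 5 or the control library of day 0, and 0 without the genotype term, with Fbxo32, atrogin-1, up by 1.29 and Map1lc3a up by 1.81. Of 17 p53 targets 7 rose and 4 fell (41.2% and 23.5%, beside 28.5% and 28.1% of all genes). Gadd45a rose by 3.37, Ccng1 fell by 1.14, and Mdm2, the main feedback target, did not pass (0.16 ± 0.07). Interferon genes gave 4 rises and 2 falls of 14 (28.6% and 14.3%), near and below the shares of all genes.

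Of 16 endothelial and blood markers 15 were too low to test, and Pecam1 and Ptprc had at most 0.185 and 0.177 CPM in any of the 6 libraries. Of 10 fat cell markers 3 were tested and 4 had no count in the 6 libraries. Adipoq, adiponectin, had 0 counts in all 9. Lpl, lipoprotein lipase, which muscle also makes, rose from 56.9, 75.3 and 32.1 to 152, 170 and 135 CPM (1.54 ± 0.15, adjusted p = 2.7e-05). Cebpa fell from 23.2, 12.6 and 13.2 to 11.5, 7.43 and 1.89 CPM (-1.31 ± 0.35, adjusted p = 0.010), a call lost without the control library of day 0, and Pparg did not pass (-0.28 ± 0.19). The summed level of the list went from 93.3, 99.3 and 52.98 to 175, 187 and 148 CPM, most of it Lpl at day 5, and its part in the other results was not tested. Osteoblast markers gave 1 rise and 3 falls of 4 tested, the largest being Spp1, osteopontin, which myoblasts also make and which fell from 4383, 3872 and 4710 to 497, 564 and 191 CPM (-3.56 ± 0.35). Of 5 neuronal markers tested 4 fell and none rose. Nefl, neurofilament light chain, fell from 136, 128 and 171 to 3.15, 3.36 and 2.46 CPM (-5.60 ± 0.36), with 32.8% of its exon bases overlapped by Nefm, which fell too (-4.80 ± 0.28).

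The 12 largest fitted rises and falls among genes with a mean of at least 5 CPM include genes outside these lists. Scara5, a ferritin receptor (chr14:65666403-65764826, plus strand), had 0 counts in all 3 day 0 libraries and 55.2, 57.0 and 20.8 CPM at day 5, at least 97.2-fold higher. Myot, myotilin of the Z-disc, Gdf5, a BMP family ligand, and Hsd17b13, a lipid droplet enzyme, were also at 0 at day 0 and at least 31.3, 22.9 and 22.0-fold higher. Gdf5 has 40.3% of its exon bases overlapped by Gm15557. Oxtr, the oxytocin receptor, went from 0.440, 0.148 and 0 CPM to 48.2, 45.6 and 58.5 (7.82 ± 0.31), and Hephl1, a copper-dependent ferroxidase, from 0.147, 0.296 and 0.323 to 62.5, 60.9 and 59.0 (7.81 ± 0.27). They had 4 and 5 counts in all at day 0, so the size of both folds is less certain than the SE. The 3 genotypes gave like values for both. Fmod, fibromodulin, Adh1, an alcohol dehydrogenase, and Col25a1, a transmembrane collagen, had 1, 2 and 2 counts in all at day 0 and 387, 606 and 564 at day 5. Their day 5 levels were lowest in the Cry2 knockdown, at 12.3, 12.9 and 11.2 CPM.

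Among the largest falls were secreted and immune-linked genes. Igsf5, an adhesion protein, went from 21.6, 19.3 and 26.3 CPM to 0.185, 0.177 and 0.378 (-6.39 ± 0.46), although another annotated model overlaps 31.2% of its exon bases. Il1rn, the interleukin 1 receptor antagonist, went from 31.1, 8.45 and 18.1 to 0.742, 0 and 0.189 (-5.88 ± 0.39). Cxcl5, a chemokine, fell by 5.10 and Itgb7, an integrin of lymphocytes, by 5.71. Ptprn, a phosphatase-like protein of secretory granules, went from 29.3, 27.0 and 23.7 to 0.556, 0.354 and 0.567 CPM (-5.71 ± 0.38). At day 5 Igsf5, Il1rn and Ptprn had 4, 5 and 8 counts in all. Mybl2, B-Myb, a cell cycle factor, fell by 5.44. Prl2c3, a proliferin, fell by 5.67 but shares 78.6% of its words with other genes. The largest losses in CPM were of Spp1, Vim, Actg1, Actb, Flna, Eno1, Lgals1 and Pkm, so cytoskeletal genes stood beside glycolytic ones: Vim, vimentin, the filament protein of undifferentiated cells, went from 7247, 5789 and 6955 to 3633, 2580 and 2800 CPM (-1.16 ± 0.10).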

How the data were processed

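PolyA RNA libraries (TruSeq RNA v2, not strand-marking) were sequenced on a HiSeq2500, per the labels. The values are raw counts of reads per gene as the authors deposited them. The submitters' processing notes name CASAVA 1.8, HISAT2 2.0.2, featureCounts 1.4.6 of Subread and mm10, with no settings, so the treatment of reads that match several genes is not known. The files hold 47728 genes, 23515 with a count in some library. Gene symbols, positions and overlaps came from GENCODE M21, which matched 47309 identifiers.

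All 9 libraries entered 1 fit in edgeR 4.0.16 (R 4.3.3, limma 3.58.1) with TMM scaling, filterByExpr by day, terms for day and genotype and 4 residual degrees of freedom. Day 3 libraries add to the estimate of spread and enter no contrast. The contrast of day 5 with day 0 was tested by the quasi-likelihood F test with Benjamini-Hochberg adjustment over 12752 genes. Standard errors are the absolute log2 fold change over the square root of F, and every "rose" or "fell" has an adjusted p under 0.05. Where a gene has few counts on 1 day, such an SE does not measure counting error and can be smaller than it. The genotype term pairs the libraries by the genotype in their labels. Within-genotype log2 ratios used a prior count of 1. Intervals and floors cover counting error only. The fit was also run on simulated counts in which few genes changed and the genotypes did not differ. These data are unlike that setting, so the run does not vouch for the calls given here.

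The comparison, its 38 gene lists and its 40 pairs were chosen with earlier results of these data known, and no list was tested as a set. Named genes are the 12 largest rises and falls with a mean of at least 5 CPM and 1 direction in all genotypes (gene models without a name and pseudogenes skipped), the 8 largest gains and losses in CPM, both members of each pair, and each list's key members with up to 5 called members of largest change. Other genes were named from the lists after their values were seen. Shared words are the share of 50-base words of a gene's longest transcript found in another gene. DESeq2 1.42.0, other scalings, filters and left-out libraries were alternatives. Python 3.11.15 with pandas 2.3.3, numpy 2.4.6 and matplotlib 3.10.9 did the rest. Amino acid sequences were not used here, and a few genes of the lists are not reported here by name.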

Additional observations from a re-analysis of the deposited data

Results flagged for a closer look

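For 3 named genes at least 1 genotype was 2-fold or more higher at day 5 while another was 2-fold or more lower. These differences between genotypes rest on 1 library a point and were not tested. For mt-Atp8 the log2 ratio of day 5 to day 0 was 1.00 in the control, -0.23 in the Cry1 knockdown and -5.49 in the Cry2 knockdown, whose day 0 library held 109.5 CPM. For Tagln it was -0.18, -1.48 and 1.06, and 48.3% of the 50-base words of this gene stand in other genes. For Aldoc, at 0.593 to 4.52 CPM in these libraries, it was -0.01, 1.98 and -1.48.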

How the results depend on the processing

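The counts of 3632 rises and 3589 falls stayed within 1.5 times under every alternative except the test against a 1.5-fold change (glmTreat), which left 1692 and 1524, 3216 in all. Without each library in turn the total ran from 6238 to 6720 (rises 3147 to 3388, falls 3091 to 3332), and without each genotype from 5755 to 6290. With no replicate block (no genotype term) it was 6307 over 9 libraries and 6204 over the 6 libraries. DESeq2 gave 5877, of which 5843 were called in edgeR too. Of 275 named genes past the threshold, 240 kept the call and sign in each of the 19 alternative fits that gave a value. 12 lost it when 1 library was left out, namely Aldoa, Asns, Cebpa, Celf2, Cnn1, Cox5a, Egr1, H3f3a, Igfbp5, Isg15, Rpl5 and mt-Atp8. The fall of mt-Atp8 (-3.42) ran from -4.58 without the control day 0 library to 0.31 without the Cry2 knockdown day 0 library, and turned to 0.43 without the Cry2 knockdown genotype. Without TMM factors 5 list medians above 0 fell below it: nuclear oxidative phosphorylation (-0.015), muscle splicing (-0.039), interferon (-0.08), p53 targets (-0.013) and endothelial and blood markers (-0.033). Levels under the 3-count limit of a library cannot be told from 0.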

Other observations

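Gapdh and Ppia, both in wide use as reference genes, moved in opposite directions between genotypes. Gapdh had 33.2, 123 and 15.0 CPM at day 0 and 93.8, 31.1 and 100.1 at day 5 in the control, Cry1 knockdown and Cry2 knockdown. Ppia had 146, 107 and 4.36 and then 30.2, 73.4 and 49.6. Of their 50-base words, 27.8% and 14.9% stand in other genes, and the same holds for 30.2% of Sumo2 and 54.8% of Eif3j1, which likewise moved in opposite directions between genotypes. Of 80 genes that were 2-fold higher in 1 genotype and 2-fold lower in another, 34 had a mean of at least 5 CPM, of which 21 were processed pseudogenes and 13 protein coding. These genes were picked after their values were seen, and what sets their counts was not tested.

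Across all genes tested, 74.0% moved in the same direction in all 3 genotypes, and 99.4% of the called genes did. The second share follows in part from the call itself. The test uses the same libraries and seldom passes a gene whose genotypes differ in direction.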
